A study of Homo sapiens with 6 samples.

Results

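The mitochondrial carriers of the SLC25 family are described here in ARPE-19 cells, an established human line of retinal pigment epithelium, after 72 h in high or in normal glucose medium. Members were the loci of the deposited table that hold an annotated protein-coding transcript and a gene named SLC25A with a number, UCP2 or UCP3. There were 50 of them among 60835 loci, and positions below are those of the deposited table, with no human build named in the labels or header. Libraries of high glucose 1, 2 and 3 were set against normal glucose 1, 2 and 3, all of them wild-type cells with no other treatment in the labels. The labels state no glucose concentration. Nor do they tell whether libraries 1, 2 and 3 were grown as separate cultures, so each p-value covers no more than library-to-library spread and that spread may be technical.

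SLC25 carriers are small proteins, most of them in the inner mitochondrial membrane, that exchange metabolites between the cytosol and the matrix. Adenine nucleotide carriers bring ADP in and ATP out, and other members move phosphate, citrate, amino acids, cofactors and iron. Retinal pigment epithelium relies strongly on mitochondrial oxidation, and it passes much of the glucose it receives on to the photoreceptors.

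Each library held 81616741 to 87748820 counts. Normal glucose 3 stood apart on the second principal component, where the high glucose libraries lay at -12.6 to -6.6, normal glucose 1 and 2 at -44 and -35.2, and normal glucose 3 at 107.1. Of 12 markers of retinal pigment epithelium, MITF and OTX2 were well detected, whereas RPE65, TYR and TTR, markers of mature pigmented cells or of their secretion, were at or near 0. That list summed to 128 to 165 CPM (counts scaled to library size, with TMM factors) in high glucose and 173 to 193 CPM in normal glucose, and 1 member, BEST1, was called, lower in high glucose. The 4 epithelial markers summed to 2084 to 2207 CPM in high glucose and 447 to 982 CPM in normal glucose, with 2 of them, KRT8 and KRT18, called higher. The 8 fibroblast markers summed to 224 to 226 CPM in high glucose and 161 to 281 CPM in normal glucose, with COL1A1 lower and PDGFRB higher as the called ones. Much of that sum came from PDGFRB and from the locus that PDGFRA shares with FIP1L1. The other markers of the list, COL1A1, COL1A2, COL3A1, DCN, LUM and THY1, were highest in normal glucose 1. COL1A1 had 86.4, 39.2 and 12.9 CPM in normal glucose 1, 2 and 3, and COL1A2 had 28.7, 0.862 and 0.866 CPM. The 4 endothelial markers summed to 3.06 to 4.51 CPM in high glucose and 10.6 to 17.1 CPM in normal glucose, with KDR called lower and CDH5 at or near 0. The 4 photoreceptor markers summed to 0.753 to 1.48 CPM in high glucose and 1.26 to 2.47 CPM in normal glucose, with CRX at 0. Of 3 leukocyte markers none was called, and their sum, 427 to 544 CPM in high glucose and 343 to 474 CPM in normal glucose, came almost wholly from the locus that CD68 shares with EIF4A1. The part of these markers in the results below was not tested.

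Carriers changed in both directions in high glucose. Of 47 members that passed the filter on low counts, 5 rose (SLC25A15, SLC25A22, SLC25A23, SLC25A51 and UCP2) and 8 fell (SLC25A5, SLC25A6, SLC25A25, SLC25A32, SLC25A33, SLC25A38, SLC25A40 and UCP3). A member is called here, and said to rise or fall, where edgeR's quasi-likelihood test gave a Benjamini-Hochberg adjusted p under 0.05 over all 25025 tested loci. The 13 called members are 27.7% of those tested, against 25.5% of the 13786 tested loci with a protein-coding transcript. Over all tested loci the called share was 19.6%. Higher calls made up 10.6% of tested members, against 13.1% of such protein-coding loci and 9.75% of all loci. Lower calls made up 17%, against 12.4% and 9.86%. The groups did not overlap for 21 members (44.7%), against 49.5% of those loci. The median log2 change of the tested members was -0.12, against 0.01 over the protein-coding loci, and without normal glucose 3 it was 0.03. These shares lie near the background, and no count over the family is read as a result about it. In bulk RNA, a lower level in each cell and fewer cells that hold the transcript cannot be told apart.

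**Figure D1:**
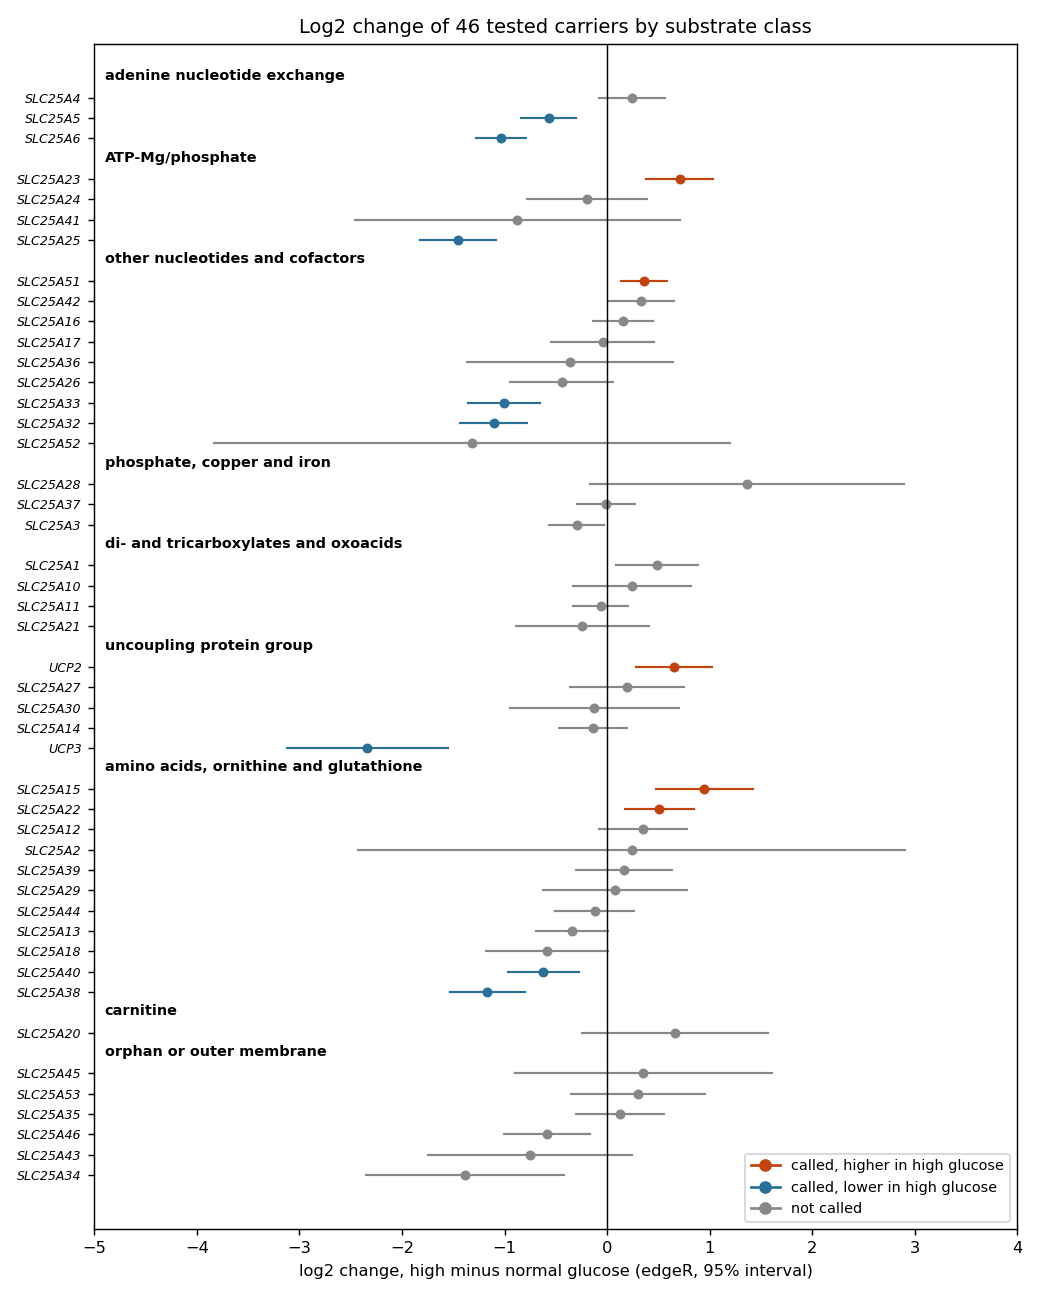
Log2 change (high minus normal glucose, edgeR estimate with its 95% interval) of 46 of the 47 tested carriers, grouped by substrate class and ordered within each class. Called members lie on both sides of 0, from UCP3 at -2.34 to SLC25A15 at 0.95, and the widest intervals belong to members with few counts.

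**Figure D2:**
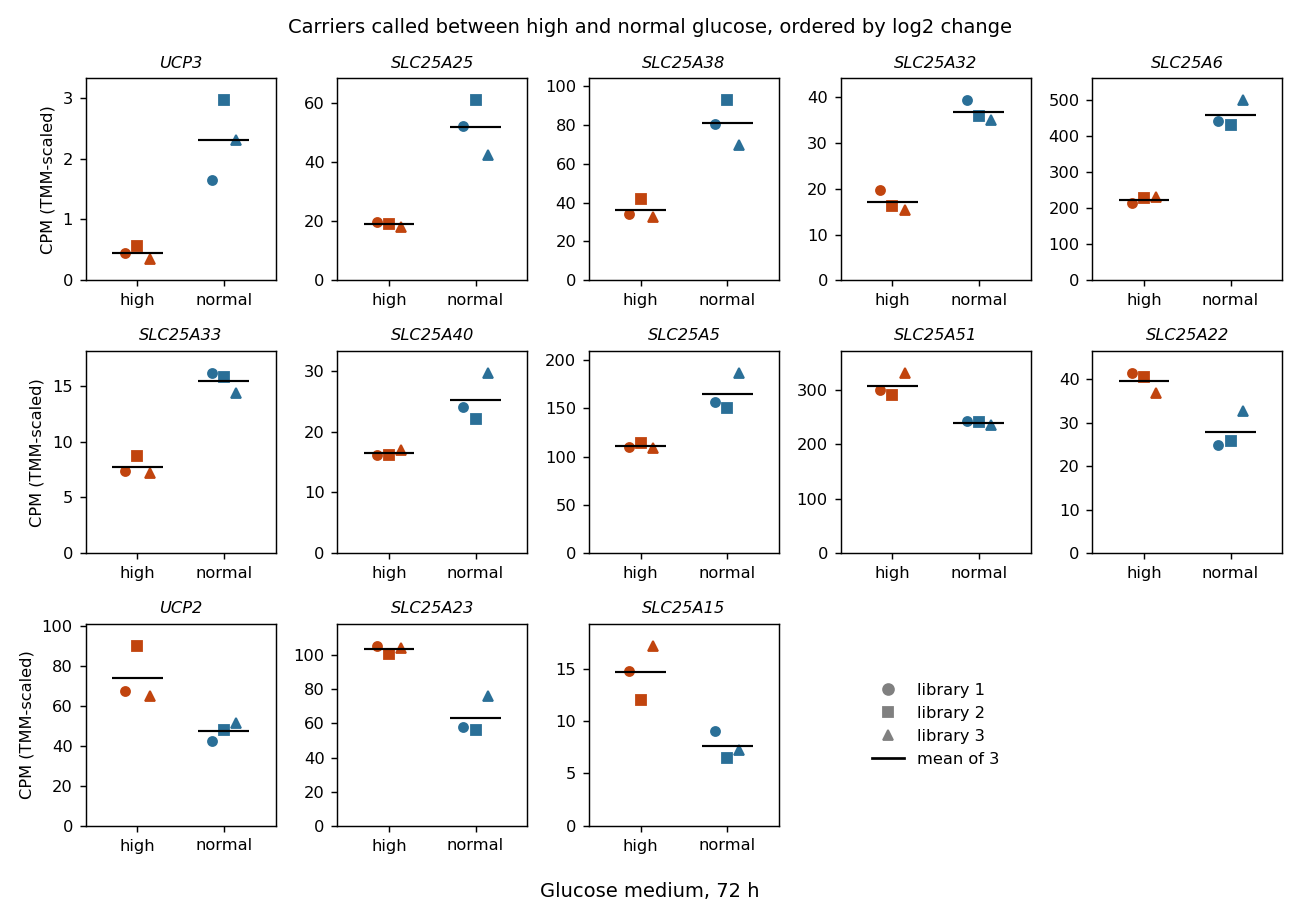
CPM of each of the 13 called carriers in the 3 high glucose and 3 normal glucose libraries, with the mean as a line and a vertical axis that starts at 0. In each panel the 3 high glucose libraries lie apart from the 3 normal glucose libraries.

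Levels per length, as FPKM (fragments scaled to a length for each locus and to library size), were uneven within the family. In high glucose 11 members exceeded 10 FPKM and 12 were below 1 FPKM, and in normal glucose these numbers were 11 and 13. The 5 most abundant members held 45.5% of the summed FPKM of the family in high glucose and 52.9% in normal glucose. The order of the leading members was SLC25A5, SLC25A1, SLC25A6, SLC25A3 and UCP2 in high glucose, and SLC25A5, SLC25A6, SLC25A1, SLC25A3 and SLC25A38 in normal glucose. This order depends on the length used. By mean CPM the SLC25A6 locus, which also holds IL3RA, stood above SLC25A5 (223 against 111 in high glucose, 457 against 165 in normal glucose). The sum over all 50 members was 374, 386 and 370 FPKM in high glucose and 412, 403 and 470 FPKM in normal glucose, so the groups did not overlap. The adenine nucleotide carriers alone summed to 98.0, 102 and 99.3 FPKM in high glucose and 149, 145 and 174 FPKM in normal glucose, and the sums of the other classes differed in both directions.

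Among the adenine nucleotide carriers, SLC25A5 and SLC25A6 fell and SLC25A4 was not called. SLC25A5, the ADP/ATP carrier linked to growing cells (X chromosome, 119468422 to 119471396), had 110, 114 and 109 CPM in high glucose libraries 1, 2 and 3, against 157, 150 and 187 CPM in normal glucose. All high glucose libraries lay below all normal glucose libraries, and SLC25A5 was 1.48-fold lower (log2 change -0.57, SE 0.115; edgeR adjusted p = 0.0172). SLC25A6, the ADP/ATP carrier found in most tissues (X chromosome, 1338061 to 1392113, in the region shared with the Y chromosome), had 213, 227 and 229 CPM in high glucose, against 441, 431 and 499 CPM in normal glucose. It was 2.05-fold lower, with no overlap (log2 change -1.03, SE 0.103; edgeR adjusted p = 0.00272). Its locus also holds IL3RA, a cytokine receptor gene, and the counts do not separate the pair. SLC25A4, the form typical of heart and muscle, had 49.3, 51.6 and 53.2 CPM in high glucose and 37, 42.6 and 50.5 CPM in normal glucose. Those groups overlapped, and the log2 change of 0.24 (95% interval -0.08 to 0.57) was not called (edgeR adjusted p = 0.259). Of the FPKM of the class, SLC25A4 held 8.23%, 8.21% and 8.66% in high glucose and 3.92%, 4.64% and 4.56% in normal glucose. The share of SLC25A5 was 57.9% to 59.9% in high glucose and 53.4% to 55.1% in normal glucose, and that of SLC25A6 was 31.9% to 33.4% in high glucose and 40.3% to 42% in normal glucose. By CPM the order was reversed, with the SLC25A6 locus above SLC25A5 in every library. Whether the length behind the FPKM of SLC25A6 includes IL3RA was not tested, so these shares do not settle which carrier is the more abundant. SLC25A31, the testis form, was not tested, with 0 counts in each high glucose library and 0, 4 and 0 in normal glucose. SLC25A5 was not called without high glucose 1, 2 or 3 (edgeR adjusted p = 0.0779, 0.0723 and 0.0807), and SLC25A4 was called, as higher, without normal glucose 3 (log2 change 0.37, edgeR adjusted p = 0.0426). Without normal glucose 1 the log2 change of SLC25A4 was 0.14 (edgeR adjusted p = 0.517).

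**Figure D3:**
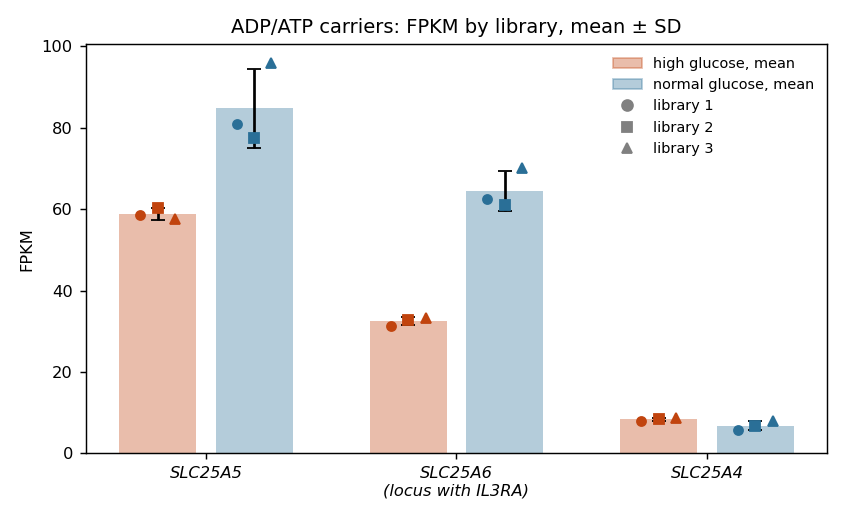
FPKM of the 3 detected ADP/ATP carriers in each library, with bars for the group mean and error bars for the SD (n = 3). SLC25A5 averaged 58.8 FPKM in high glucose and 84.8 FPKM in normal glucose, SLC25A6 averaged 32.5 FPKM in high glucose and 64.5 FPKM in normal glucose, and SLC25A4 averaged 8.33 FPKM in high glucose and 6.84 FPKM in normal glucose.

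Of the carriers of ATP-Mg and phosphate, most of them regulated by calcium, which set the size of the adenine nucleotide pool of the matrix, SLC25A25 fell and SLC25A23 rose. SLC25A25 (chromosome 9, 128068201 to 128109245) had 19.8, 19 and 18 CPM in high glucose, against 52.3, 61.2 and 42.4 CPM in normal glucose. The high glucose libraries lay close together and well below the others, and SLC25A25 was 2.74-fold lower (log2 change -1.46, SE 0.156; edgeR adjusted p = 0.0031). SLC25A23 (chromosome 19, 6436079 to 6465203) had 106, 101 and 104 CPM in high glucose, against 58.0, 55.9 and 75.9 CPM in normal glucose. It was 1.63-fold higher without overlap (log2 change 0.71, SE 0.139; edgeR adjusted p = 0.0158). SLC25A24, another carrier of this kind, had 60.2, 105 and 59.6 CPM in high glucose and 97.8, 89.0 and 70.1 CPM in normal glucose. High glucose 2 was the highest of all its 6 libraries, and SLC25A24 was not called (log2 change -0.19, 95% interval -0.78 to 0.39; edgeR adjusted p = 0.63). SLC25A41, a form without the calcium-binding part, was near the limit of detection, at 0.121 to 0.314 CPM in high glucose and 0.185 to 0.804 CPM in normal glucose (edgeR adjusted p = 0.411). SLC25A23 was not called without high glucose 1, 2 or 3 (edgeR adjusted p = 0.0662, 0.0638 and 0.066) or without normal glucose 1 (0.0535).

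Of 10 members that carry other nucleotides and cofactors, SLC25A32 and SLC25A33 fell and SLC25A51 rose. SLC25A32, which brings folate and is also linked to FAD transport (chromosome 8, 103398635 to 103501895), had 19.6, 16.2 and 15.4 CPM in high glucose, against 39.4, 35.9 and 35.1 CPM in normal glucose. The groups were far apart, and it was 2.15-fold lower (log2 change -1.11, SE 0.138; edgeR adjusted p = 0.00455). Its locus is also named for AC012213, and the counts do not separate the pair. SLC25A51, the mitochondrial NAD carrier, lies in a locus (chromosome 9, 37510892 to 38068687) that also holds FBXO10, TOMM5, EXOSC3 and SHB, and that locus had 301, 291 and 332 CPM in high glucose, against 243, 242 and 235 CPM in normal glucose. The locus rose by 1.28-fold without overlap (log2 change 0.36, SE 0.0967; edgeR adjusted p = 0.0415), and how much of it is SLC25A51 cannot be read from these counts. It was not called without high glucose 1, 2 or 3 (edgeR adjusted p = 0.117, 0.106 and 0.158) or without normal glucose 1 or 2 (0.0878 and 0.0832). The coenzyme A carriers SLC25A16 and SLC25A42 had differences of 0.15 and 0.33 on the log2 scale and were not called (adjusted p by edgeR 0.437 and 0.139). SLC25A26, which imports the methyl donor S-adenosylmethionine, was at -0.44 on the log2 scale (edgeR, adjusted p = 0.192), not called, but it was called, as lower, without normal glucose 3 (log2 change -0.61, edgeR adjusted p = 0.0417). Without normal glucose 2 it was at -0.29 (edgeR adjusted p = 0.446). SLC25A17, a carrier of peroxisomes, had a log2 change of -0.04, and SLC25A52, a second NAD carrier, had at most 0.804 CPM in any library.

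Of the pyrimidine nucleotide carriers of this class, SLC25A33 fell and SLC25A36 was not called. SLC25A33, a carrier of pyrimidine nucleotides needed for mitochondrial DNA and RNA (chromosome 1, 9539465 to 9585173), had 7.33, 8.69 and 7.15 CPM in high glucose, against 16.2, 15.8 and 14.4 CPM in normal glucose. It was 2.0-fold lower with no overlap (log2 change -1.0, SE 0.149; edgeR adjusted p = 0.00736). SLC25A36, the other pyrimidine nucleotide carrier, had 39.7, 84.3 and 81.5 CPM in high glucose and 142, 72.4 and 50.3 CPM in normal glucose. Its libraries spread widely within both groups and overlapped, and it was not called (log2 change -0.36, 95% interval -1.37 to 0.64; edgeR adjusted p = 0.596). Without normal glucose 1 its log2 change was 0.16.

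The bases before the transcription start are shown for SLC25A25 and SLC25A33, which fell, and for SLC25A36, the partner of SLC25A33 that was not called, since these 3 members hold TGACGTCA, a palindrome that proteins of the CREB and ATF family can bind. Each line gives 250 bases upstream of a RefSeq start, 5′ to 3′, on the plus strand of GRCh38.p14. SLC25A25 has 3 windows in the table, of which only the 1 with the motif is shown. Capitals mark TGACGTCA and CACGTG, the E-box.
SLC25A25, chr9:128098257-128098506: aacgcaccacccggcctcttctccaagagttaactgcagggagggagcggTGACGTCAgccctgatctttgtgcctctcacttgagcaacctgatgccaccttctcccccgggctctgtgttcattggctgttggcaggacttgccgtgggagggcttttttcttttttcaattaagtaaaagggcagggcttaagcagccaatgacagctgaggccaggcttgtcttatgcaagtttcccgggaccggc
SLC25A33, chr1:9539215-9539464: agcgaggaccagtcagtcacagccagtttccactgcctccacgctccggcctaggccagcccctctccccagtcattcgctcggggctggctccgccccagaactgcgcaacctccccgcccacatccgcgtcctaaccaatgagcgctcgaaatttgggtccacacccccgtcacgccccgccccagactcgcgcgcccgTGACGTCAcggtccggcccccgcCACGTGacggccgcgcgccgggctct
SLC25A36, chr3:140941586-140941835: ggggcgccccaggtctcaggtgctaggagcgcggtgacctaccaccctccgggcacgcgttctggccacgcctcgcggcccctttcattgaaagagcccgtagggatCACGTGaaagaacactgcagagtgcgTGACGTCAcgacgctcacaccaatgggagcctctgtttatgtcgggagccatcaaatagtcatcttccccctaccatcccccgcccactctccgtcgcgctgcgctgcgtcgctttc

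Counted from the transcription start, TGACGTCA began at position -200 in SLC25A25, -49 in SLC25A33 and -117 in SLC25A36. Promoter windows of 300 bases (250 before and 50 after a start) were found for 42 members, 53 windows in all, and 4 motifs were searched on both strands. TGACGTCA was in 3 of 53 member windows (5.66%) and in 1.85% of 35116 windows of all genes. CACGTG was in 9 member windows (17%), against 7.26% of all. The NRF1 motif, named for a regulator of mitochondrial genes, was in 5 (9.43%), against 5.78%, and TGATGNAA, the composite site of C/EBP and ATF4, in 1 (1.89%), against 3.62%. Of the 7 members called lower that have a window, 2 held TGACGTCA and 2 held CACGTG, SLC25A33 holding both and SLC25A38 the E-box. Of 5 members called higher, SLC25A22 and SLC25A51 held CACGTG. A match describes the letters of a window and is not shown to be a bound site.

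Among 11 carriers of amino acids, ornithine and glutathione, SLC25A38 and SLC25A40 fell and SLC25A15 and SLC25A22 rose. SLC25A38, which imports glycine for the first step of heme synthesis (chromosome 3, 39383370 to 39397351), had 34, 41.9 and 32.4 CPM in high glucose, against 80.8, 92.9 and 69.6 CPM in normal glucose. All high glucose libraries were lower, and the fall was 2.25-fold (log2 change -1.17, SE 0.156; edgeR adjusted p = 0.00539). Among the members by mean FPKM it stood at place 11 in high glucose and at place 5 in normal glucose. SLC25A40, a glutathione importer (chromosome 7, 87833568 to 87876360), had 16.3, 16.2 and 17 CPM in high glucose, against 24.1, 22.2 and 29.7 CPM in normal glucose. It was 1.54-fold lower without overlap (log2 change -0.62, SE 0.147; edgeR adjusted p = 0.028). SLC25A39, the other glutathione importer and per length the more abundant one, had 87.5, 85.2 and 69.2 CPM in high glucose and 62.3, 59.3 and 93.7 CPM in normal glucose. Normal glucose 3 was its highest library, and SLC25A39 was not called (log2 change 0.17, 95% interval -0.30 to 0.64; edgeR adjusted p = 0.6).

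SLC25A15, the ornithine carrier of the urea cycle (chromosome 13, 40789412 to 40812460), had 14.8, 12 and 17.2 CPM in high glucose, against 9.02, 6.5 and 7.28 CPM in normal glucose. It was 1.93-fold higher without overlap (log2 change 0.95, SE 0.201; edgeR adjusted p = 0.02). Its paralogue SLC25A2 was barely detected, with 28, 15 and 14 counts in high glucose and 21, 0 and 26 in normal glucose. SLC25A22, a glutamate carrier (chromosome 11, 790475 to 798281), had 41.4, 40.5 and 36.8 CPM in high glucose, against 24.9, 25.7 and 32.8 CPM in normal glucose. It was 1.42-fold higher, with no overlap (log2 change 0.51, SE 0.143; edgeR adjusted p = 0.0466). SLC25A18, a second glutamate carrier, had 8.35, 8.27 and 7.04 CPM in high glucose and 7.79, 15 and 12.8 CPM in normal glucose. Normal glucose 1 overlapped with the high glucose libraries, and SLC25A18 was not called (log2 change -0.59, edgeR adjusted p = 0.149), though without normal glucose 1 it was (-0.82, edgeR adjusted p = 0.0399). Without normal glucose 2 it was at -0.38 (edgeR adjusted p = 0.374). The aspartate/glutamate carriers of the malate-aspartate shuttle, SLC25A12 and SLC25A13, had differences of 0.35 and -0.34 on the log2 scale and were not called (adjusted p by edgeR 0.227 and 0.151). SLC25A29, for basic amino acids, and SLC25A44, for branched-chain amino acids, had differences of 0.08 and -0.12 on the log2 scale and were not called (adjusted p by edgeR 0.887 and 0.646). Without high glucose 1, 2 and 3 the edgeR adjusted p was 0.105, 0.109 and 0.0933 for SLC25A40 and 0.15, 0.149 and 0.102 for SLC25A22. For SLC25A15 it was 0.0748 and 0.0821 without high glucose 1 and 3 and 0.0601 without normal glucose 2, and without normal glucose 1 it was 0.0596 for SLC25A40 and 0.125 for SLC25A22, with 0.126 for SLC25A22 without normal glucose 2.

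In the group of uncoupling proteins, UCP2 rose and UCP3 fell. UCP2, which exports carboxylates of the Krebs cycle and can dissipate the proton gradient (chromosome 11, 73974672 to 73983246), had 67.4, 90.2 and 65.0 CPM in high glucose, against 42.4, 47.7 and 51.6 CPM in normal glucose. High glucose 2 was the highest library, and UCP2 was 1.57-fold higher without overlap (log2 change 0.65, SE 0.158; edgeR adjusted p = 0.0304). UCP3, the form typical of muscle (chromosome 11, 74000277 to 74009085), had 40, 49 and 29 counts in high glucose, against 142, 254 and 191 in normal glucose. That is 0.448, 0.558 and 0.352 CPM in high glucose against 1.64, 2.96 and 2.30 CPM in normal glucose, a 5.06-fold lower level at a low abundance (log2 change -2.34, SE 0.333; edgeR adjusted p = 0.00642). UCP2 and UCP3 are neighbours on chromosome 11, with separate loci in the table. SLC25A14, SLC25A27 and SLC25A30 were not called, at -0.14, 0.19 and -0.12 on the log2 scale (adjusted p by edgeR 0.541, 0.615 and 0.837). UCP2 was not called without high glucose 1, 2 or 3 (edgeR adjusted p = 0.0726, 0.0961 and 0.0631) or without normal glucose 1 or 2 (0.0919 and 0.0799).

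None of the 3 carriers of phosphate, copper and iron was called. SLC25A3, which supplies phosphate for ATP synthesis and copper for cytochrome oxidase, had 230, 242 and 235 CPM in high glucose and 284, 259 and 325 CPM in normal glucose. Its groups did not overlap, but the difference of -0.30 on the log2 scale was not called (SE 0.113; edgeR adjusted p = 0.111). SLC25A28, mitoferrin-2, an iron importer, had 21.3, 20.9 and 19 CPM in high glucose, and 2.69, 3.83 and 17.2 CPM in normal glucose. Normal glucose 3 lay close to the high glucose libraries and far from the other normal glucose libraries, and SLC25A28 was not called (log2 change 1.36, 95% interval -0.17 to 2.90; edgeR adjusted p = 0.187). Without normal glucose 3 it was called (log2 change 2.64, edgeR adjusted p = 6.12e-04), and without normal glucose 1 or 2 the log2 change was 0.95 or 1.03 (edgeR adjusted p = 0.333 and 0.385). SLC25A37, mitoferrin-1, had 64.1, 58.2 and 61.8 CPM in high glucose and 61.6, 54.6 and 69.3 CPM in normal glucose, which overlap (log2 change -0.01, 95% interval -0.30 to 0.27).

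The 4 carriers of di- and tricarboxylates were not called either. SLC25A1, which exports citrate for lipid synthesis, had 93.7, 94.8 and 99.4 CPM in high glucose and 73.4, 51.5 and 80.6 CPM in normal glucose. All high glucose libraries were higher, with 0.49 on the log2 scale (SE 0.17; edgeR adjusted p = 0.0883), and SLC25A1 was called without normal glucose 3 (0.62, edgeR adjusted p = 0.0307). Without normal glucose 2 the value was 0.32 (edgeR adjusted p = 0.116). SLC25A10, the dicarboxylate carrier, in a locus with MRPL12, had 51.7, 53.4 and 54.4 CPM in high glucose and 35, 35.1 and 64.6 CPM in normal glucose. Normal glucose 3 was its highest library, the log2 change was 0.24 (edgeR adjusted p = 0.533), and without normal glucose 3 it was 0.60 (edgeR adjusted p = 0.00438). Without normal glucose 1 or 2 it was 0.0923 or 0.0941 (edgeR adjusted p = 0.849 and 0.851). SLC25A11, the oxoglutarate/malate carrier, and SLC25A21, for oxodicarboxylates, had differences of -0.06 and -0.24 on the log2 scale and were not called (adjusted p by edgeR 0.739 and 0.589).

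SLC25A20, which brings acylcarnitines in for fatty acid oxidation, had 22.6, 8.98 and 13.3 CPM in high glucose and 9.68, 6.08 and 12.5 CPM in normal glucose. High glucose 1 was the highest library, the groups overlapped, and it was not called (log2 change 0.66, 95% interval -0.25 to 1.57; edgeR adjusted p = 0.276). Of 8 orphan or outer membrane members, 6 were tested and none was called. SLC25A46, an outer membrane protein that acts in mitochondrial shape, had 79.7, 83.1 and 58.2 CPM in high glucose and 112, 127 and 93.0 CPM in normal glucose. The groups did not overlap, and its log2 change of -0.59 had an edgeR adjusted p of 0.0583, or of 0.0257 without normal glucose 3 and 0.159 without normal glucose 2. SLC25A34, an orphan, had 1.54, 0.547 and 1.26 CPM in high glucose and 2.11, 3.30 and 3.33 CPM in normal glucose, again without overlap (log2 change -1.38, edgeR adjusted p = 0.0551). SLC25A43 was at -0.76 on the log2 scale (edgeR, adjusted p = 0.255), at -1.11 without normal glucose 1 (edgeR adjusted p = 0.0487) and at -0.35 without normal glucose 3 (edgeR adjusted p = 0.568). SLC25A35, SLC25A45 and SLC25A53 had differences of 0.12, 0.35 and 0.30 on the log2 scale and were not called (adjusted p by edgeR 0.678, 0.684 and 0.495). SLC25A47, known from liver, had 0 counts in each high glucose library and 0, 9 and 0 in normal glucose, and SLC25A48 had 0, 4 and 12 counts in high glucose and 4, 0 and 4 in normal glucose, so neither was tested.

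Within a library, the balance between carriers that share a substrate was read as the ratio of their FPKM. Of 9 pairs compared, 7 had ratios that did not overlap between the groups. A called member, itself without overlap, is in 5 of these 7 pairs, and single protein-coding loci did not overlap in 49.5% of cases, so the count is not read as a result. SLC25A25 stood to SLC25A23 at 0.186, 0.186 and 0.171 in high glucose, against 0.892, 1.08 and 0.553 in normal glucose. SLC25A6 stood to SLC25A5 at 0.533, 0.545 and 0.577 in high glucose, against 0.772, 0.787 and 0.732 in normal glucose, with the limit that the SLC25A6 locus holds IL3RA too. The ratio of SLC25A40 to SLC25A39 was 0.128, 0.131 and 0.169 in high glucose, against 0.267, 0.258 and 0.219 in normal glucose. In each of these pairs the first gene was lower relative to the second in high glucose.

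The ratio of SLC25A4 to SLC25A5 ran the other way, at 0.138, 0.138 and 0.150 in high glucose, against 0.0723, 0.0870 and 0.0827 in normal glucose. SLC25A12 stood to SLC25A13 at 0.352, 0.424 and 0.485 in high glucose, against 0.250, 0.275 and 0.257 in normal glucose, although neither gene was called by itself. The glutamate carriers SLC25A18 and SLC25A22 had ratios of 0.162, 0.164 and 0.154 in high glucose, against 0.252, 0.470 and 0.314 in normal glucose. Mitoferrin-1 to mitoferrin-2 (SLC25A37 to SLC25A28) was 0.531, 0.493 and 0.575 in high glucose, against 4.06, 2.52 and 0.711 in normal glucose, with normal glucose 3 next to the high glucose libraries. SLC25A33 to SLC25A36 and SLC25A24 to SLC25A23 overlapped between the groups (exact permutation test, 2-sided, p = 0.2 for each). For the 7 pairs without overlap the exact permutation p was 0.1, the smallest that 3 libraries against 3 can give, or 0.129 adjusted over the 9 pairs, so none of these tests can pass a threshold of 0.05. SLC25A2 to SLC25A15 was left out because SLC25A2 had no count in normal glucose 2.

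**Figure D4:**
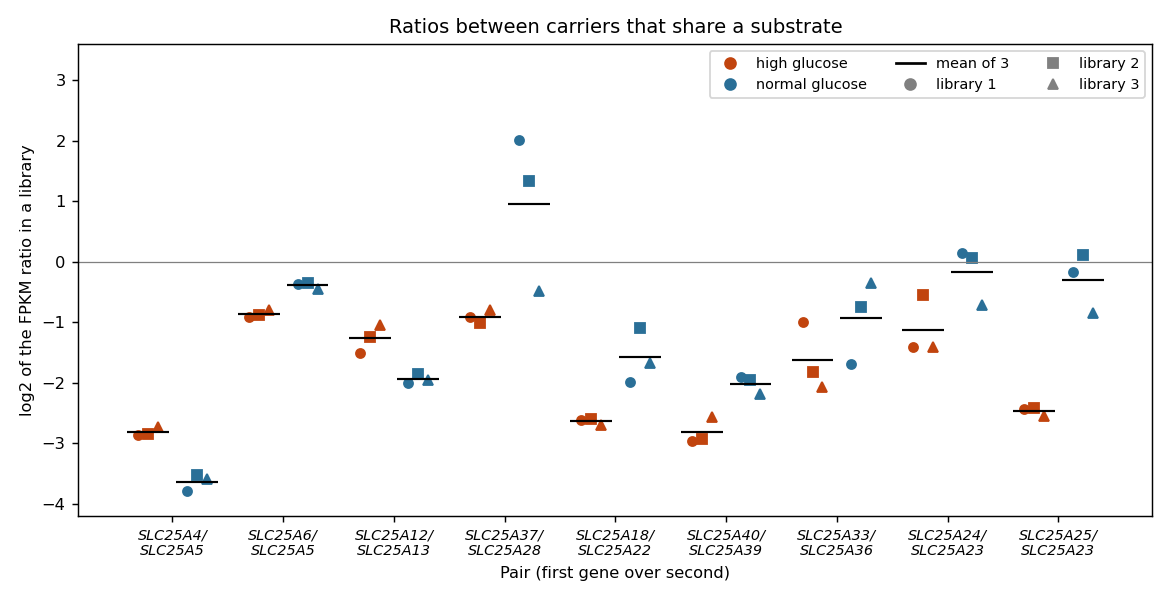
Log2 of the within-library FPKM ratio for 9 pairs of carriers with a shared substrate, by group, with the mean of the 3 libraries as a line. SLC25A25/SLC25A23 lies near -2.47 in high glucose and -0.30 in normal glucose, and the SLC25A37/SLC25A28 ratio spreads widely among the normal glucose libraries.

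Genes that bring carriers into the inner membrane, and other transporters of mitochondrial membranes, had 6 of 33 tested genes called higher in high glucose (18.2%) and none lower, against 13.1% and 12.4% of the protein-coding loci. Since TOMM5 is counted in the locus of SLC25A51, 5 of these calls are loci apart from the carriers. Of 13 genes of the import route, all tested, 3 rose (23.1%) and none fell, with a median log2 change of 0.04, against 0.01 over the protein-coding loci. TOMM70, the outer membrane receptor for carrier precursors, had 112, 119 and 120 CPM in high glucose, against 92.8, 92.1 and 93.0 CPM in normal glucose. It did not overlap between the groups (log2 change 0.34, edgeR adjusted p = 0.0406). TOMM6, a small subunit of the outer membrane pore in a locus with PRICKLE4, rose by 0.82 on the log2 scale (edgeR adjusted p = 0.0218), and TOMM5 is counted in the SLC25A51 locus given above. TIMM22, the inner membrane insertase for carriers, and AGK, its partner, had differences of -0.09 and 0.05 on the log2 scale and were not called (adjusted p by edgeR 0.623 and 0.824).

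Of 21 other transporters, 20 were tested, 3 rose (15%, against 13.1% of the protein-coding loci) and none fell (against 12.4%), with a median log2 change of 0.21, against 0.01. MCU, the pore of the calcium uniporter, had 81.4, 83.4 and 86.1 CPM in high glucose, against 47.5, 52.8 and 61.9 CPM in normal glucose (log2 change 0.63, edgeR adjusted p = 0.0159). VDAC1, the main outer membrane channel for metabolites, had 232, 221 and 221 CPM in high glucose, against 148, 112 and 162 CPM in normal glucose (log2 change 0.68, edgeR adjusted p = 0.0223). SFXN2, a sideroflexin in a locus with WBP1L, rose by 0.79 on the log2 scale (edgeR adjusted p = 0.0354). MPC1 and MPC2, the subunits of the pyruvate carrier, which is not of the SLC25 family, had differences of -0.10 and 0.56 on the log2 scale and were not called (adjusted p by edgeR 0.894 and 0.131). The brown fat uncoupling protein UCP1 had at most 0.0448 CPM and was not tested. How the calls of MCU, VDAC1, SFXN2, TOMM70 and TOMM6 hold when a library is left out was not examined.

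The calls differed in how they held when a library was left out. The 6 members SLC25A6, SLC25A25, SLC25A32, SLC25A33, SLC25A38 and UCP3, all lower in high glucose, were called under each of 17 alternatives, the omission of each library among them, with an edgeR adjusted p of at most 0.0438 over the omissions. The other 7 called members, the 5 that rose among them, were each not called under at least 3 of the omissions. Called members numbered 6, 7 and 6 without high glucose 1, 2 and 3, and 10, 9 and 19 without normal glucose 1, 2 and 3. Over all loci, the calls without high glucose 1, 2 and 3 numbered 1631, 1421 and 1507. Of these, 819, 730 and 785 were higher and 812, 691 and 722 lower. Without normal glucose 1, 2 and 3 the loci called numbered 2846, 2727 and 7615, against 4906 with all libraries. The member counts are not read as a result about the family. Without normal glucose 3 all 13 called members remained called, with 6 more. Of the 13 called members, 7 had normal glucose 3 as the normal glucose library closest to the high glucose mean, and normal glucose 1 and 2 were the closest for 3 each. The spread between normal glucose libraries was wider than that between high glucose libraries for 33 of 47 members. The median range was 0.35 on the log2 scale in high glucose and 0.46 in normal glucose. The same comparison was not made over all tested loci, so this count is not read as a result about the carriers.

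**Figure D5:**
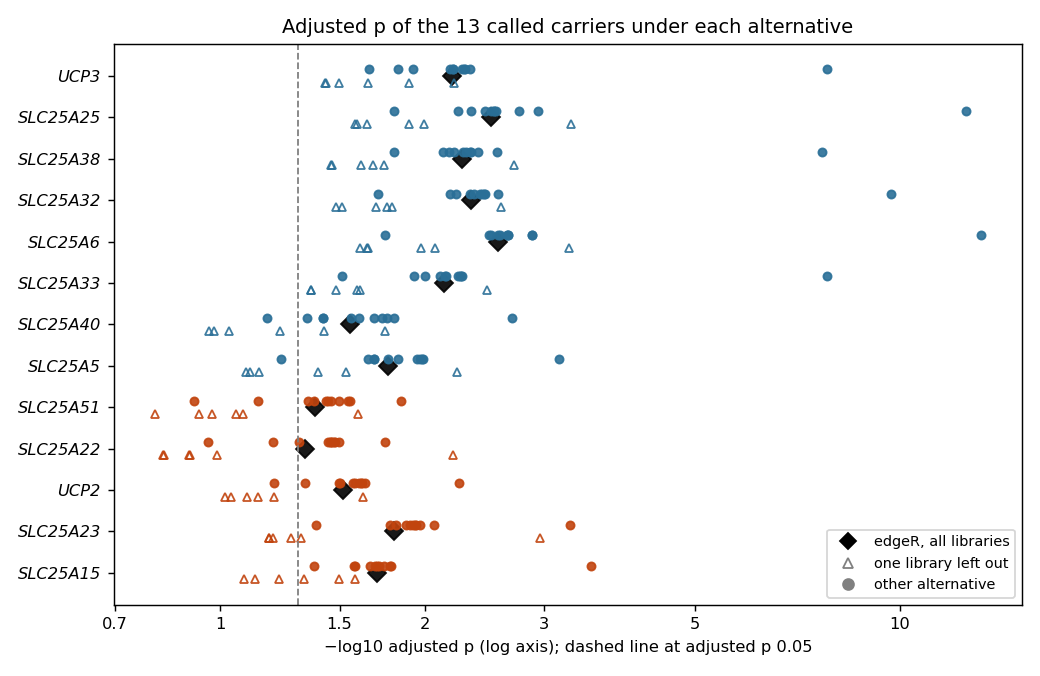
Adjusted p (as −log10, log axis) of the 13 called carriers with all libraries (black diamonds), with 1 library left out (open triangles) and under the other alternatives (circles), in red for higher and blue for lower in high glucose. For the 6 members at the top every point lies to the right of the dashed line at an adjusted p of 0.05.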

How the data were processed

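The authors deposited 1 table with a raw count and an FPKM value per locus and library, per the file headers. The deposited counts are whole numbers, and the headers do not state whether they are raw. FPKM, as deposited, scales to a length for each locus and to sequencing depth, and its 0.0001 entries were read as 0. For SLC25A6 that length is not the span of the locus. Bowtie 0.12.2 and mm8, a mouse build, stand in the submitters' processing notes, but identifiers are human, and all 50 members overlapped their GRCh38.p14 position. The counting tool and use of strand are not given in the sources used here. Values of 4 were more frequent (9555) than 3 (4210) or 5 (2659), and values of 8 (5558) than 7 (2645) or 9 (1900). Counts divided by 4 were therefore also tried. All 37 mitochondrial-genome loci hold no count and stayed out of the fit. 8 members share a locus with another named gene, 3 of them with another protein-coding gene.

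Libraries were grouped by the labels, 3 per group. Counts were filtered with filterByExpr, scaled with TMM and compared between groups (high over normal glucose) in edgeR 4.0.16 (glmQLFit, glmQLFTest, 2-sided, R 4.3.3), with SE as the estimate over the square root of F. The step was tested on simulated data. Promoter sequences come from the RefSeq table of GRCh38.p14. Alternatives were DESeq2 1.42.0, limma 3.58.1 (voom; log2(FPKM + 1) and log2(FPKM + 0.1)), other scalings and filters, a replicate block and the omission of each library. Values per library are given for called members, the most abundant of each class and partners of called members, and others were chosen after their values were seen. Members, classes and lists were chosen with earlier results of these data known. The values of 1 member are not reported here, though the counts include it.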

Additional observations from a re-analysis of the deposited data

How the results depend on the processing

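The 13 called members numbered 11 to 15 under the alternatives with all libraries, except for 9 with the replicate number as a block. Same-numbered libraries did not deviate together (correlations of -0.017, -0.001 and -0.009). With 3 libraries per group this cannot tell whether the libraries were prepared in pairs. Under that replicate block 2 members were called higher and 2545 loci overall (1312 higher, 1233 lower), against 4906 (2439 higher, 2467 lower). SLC25A5, SLC25A22, SLC25A40, SLC25A51 and UCP2 were not called under it (edgeR adjusted p = 0.0592, 0.11, 0.0674, 0.122 and 0.0631), and SLC25A46 was. Members called higher numbered 3 without a filter on low counts, where SLC25A22 and SLC25A51 were not called (edgeR adjusted p = 0.0636 and 0.0729). With 1 library left out, called members numbered 6 to 19, those called higher 0 to 9, all loci called 1421 to 7615, those called higher 730 to 3932 and those called lower 691 to 3683, with the highest of each without normal glucose 3. An omission also leaves fewer libraries to the test. Of the members not called, SLC25A37 had a log2 change of 0.0021 with upper-quartile scaling, 0.0288 with limma on log2(FPKM + 1) and 0.0349 on log2(FPKM + 0.1), against -0.01. With a library left out, log2 changes of members not called crossed 0, ranging from -0.18 to 0.14 for SLC25A17, -0.64 to 0.16 for SLC25A36, -2.0 to 0.27 for SLC25A52, -0.0923 to 0.0799 for SLC25A37, -0.11 to 0.0141 for SLC25A11, -0.38 to 0.0441 for SLC25A21, -0.37 to 0.15 for SLC25A30, -0.34 to 0.84 for SLC25A2, -0.10 to 0.36 for SLC25A29, -0.23 to 0.0256 for SLC25A44 and -0.0418 to 1.05 for SLC25A45. The cause was not tested. No called member and no ratio between carriers changed direction. SLC25A34 and SLC25A46 were called with DESeq2 (adjusted p = 0.00769 and 0.0229) and in the fits over fewer loci or counts divided by 4. SLC25A34 was also called with limma on log2(FPKM + 1), and SLC25A28 was called, as higher, with voom on all libraries.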

Other observations

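The table holds 5 further loci named SLC25A53 without an annotated transcript, all within the span of that gene on the X chromosome, and they were not members. The locus from 104122096 to 104124745 had 156, 133 and 130 counts in high glucose and 313, 302 and 356 in normal glucose (log2 change -1.24, edgeR adjusted p = 0.00925). Of the other 4, none was called, with log2 changes of -1.08 to -0.28. The annotated SLC25A53 locus itself had 193, 277 and 268 counts in high glucose and 148, 241 and 203 in normal glucose (log2 change 0.30, edgeR adjusted p = 0.495). Which transcript the unannotated pieces belong to was not tested.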
